A study of Danio rerio with 12 samples.

Results

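The PAR bZIP activators and the NFIL3 repressors were examined in skeletal muscle of zebrafish during fasting and refeeding. The genes were taken by their symbols, and 9 of the 10 symbols chosen (dbpa, dbpb, tefa, tefb, hlfa, hlfb, nfil3, nfil3-5 and nfil3-6) were found among the 25281 genes of the deposited table. These are 6 activators and 3 repressors. The gene nfil3-2 was not analysed here. Of the 9 genes, 8 passed a filter on low counts, as did 16745 genes in all, and hlfb did not. The tissue was trunk muscle behind the anus, from wild type fish aged 2 to 3 months by the labels. The methods of the study differ, with fish 3 months old when bought and then kept for over a month. The fish came from a vendor and no strain is given. Fish of the group Fast had no food for 24 h, and those of Refed_3h and Refed_8h were fed again after the same fast and sampled 3 h and 8 h later, so that 3 h vs Fast, 8 h vs Fast and 8 h vs 3 h are the 3 comparisons. Each group held 4 separate fish of both sexes, with no genetic change and no drug in any of them. No group without a fast was sampled, and each group was taken at its own time of day, so refeeding and time of day cannot be told apart for any value given here.

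The PAR bZIP proteins carry a region rich in proline and acidic residues next to a basic leucine zipper, and they activate genes through a DNA element called the D-box. DBP (albumin D-box binding protein), TEF (thyrotroph embryonic factor) and HLF (hepatic leukemia factor) make up this family. NFIL3, also called E4BP4, binds the same element but lacks the proline and acidic region and represses. In mouse, transcription of Dbp is driven by the clock activators CLOCK and BMAL1, and that of Nfil3 is held down by the nuclear receptor REV-ERB alpha, so that both arms carry the rhythm of the circadian clock to other genes. In zebrafish the D-box also serves transcription driven by light. Each mammalian PAR bZIP gene has a pair of copies in zebrafish, marked a and b, and NFIL3 has several.

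Counts assigned to genes summed to 11929140 to 18446239 per library. Markers of skeletal muscle summed to 94025 to 133538 TPM per library (a level scaled per transcript length and to the same total in each library), with actc1b, an actin of muscle, the most abundant of the 11. In Fast, Refed_3h and Refed_8h these sums were 94025 to 115912, 104546 to 133538 and 102105 to 131907 TPM. Of the 10 tested muscle markers 2 rose in 3 h vs Fast, where 2.28% of all tested genes did. There 5 had an unadjusted p under 0.05, 4 passed in DESeq2 and 1 in limma. In the other comparisons 0 of them passed in edgeR. Transcripts of other cell types were present. Pigment cell markers, led by tyrp1b, summed to 24.1 to 50.9 TPM in Fast, 12.4 to 24.4 TPM in Refed_3h and 19.1 to 29.8 TPM in Refed_8h. Endothelial markers, led by plvapb, summed to 112 to 123, 68.5 to 87.4 and 92.6 to 121 TPM in the same order. Of these 11 genes 1 fell in 3 h vs Fast, 0 passed in edgeR in 8 h vs Fast and 1 rose in 8 h vs 3 h. Skin epithelium markers, led by krt5, summed to 21621 to 26123 TPM in Fast, 14178 to 23496 TPM in Refed_3h and 13411 to 25049 TPM in Refed_8h. Of its 16 genes 1 fell in 3 h vs Fast and 0 passed in edgeR in 8 h vs Fast (9 had an unadjusted p under 0.05, 4 passed in DESeq2 and 0 in limma). Of the other lists, leukocytes (cd74a) summed over all fish to 2036 to 4945 TPM, red blood cells (hbaa1) to 908 to 4970, neurons and glia (mbpa) to 337 to 441 and adipocytes (adipoqb) to 22.2 to 58.7 TPM. Red blood cell markers summed to 908 to 1551 TPM in Fast, 1114 to 4970 TPM in Refed_3h and 1187 to 1969 TPM in Refed_8h. Of the 5 tested, 0 passed in edgeR or limma in any comparison. In the 3 comparisons 3, 0 and 4 had an unadjusted p under 0.05, and 2, 0 and 3 passed in DESeq2. Among 8 tested markers of neurons and glia, 1 rose in 3 h vs Fast. In bulk tissue, fewer cells of a type and less RNA per cell cannot be told apart.

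Counts were tested with the quasi-likelihood test of edgeR, in 1 model of the 3 groups scaled by TMM, and the p-values of all 16745 genes were adjusted by Benjamini-Hochberg (padj). The log2 fold change (log2FC) is given with its standard error (SE). A gene was called when its padj was under 0.05 and its change at least 2-fold. In 3 h vs Fast 4 of the 8 tested genes were called, dbpa, dbpb and tefb lower and nfil3-5 higher, against 2.07% of all tested genes (0.687% higher and 1.39% lower). In 8 h vs Fast 4 were called, dbpa and dbpb lower and nfil3 and nfil3-5 higher, against 0.985% of all tested genes (0.376% higher and 0.609% lower). In 8 h vs 3 h 3 were called, dbpa lower and nfil3 and nfil3-5 higher, against 2.78% of all tested genes (1.7% higher and 1.09% lower). The same genes passed the adjusted p without the fold condition, where 4.9%, 1.4% and 6.41% of all tested genes did. The fish of the groups did not overlap in TPM for 4, 5 and 3 of the 8 genes, against 17.5%, 6.34% and 13.8% of all tested genes. The comparisons share libraries, so their counts are not separate evidence. The genes were chosen with earlier results of these data known, so their counts beside these shares are only a description. The median log2FC of the 5 tested activators was -1.55, -1.39 and -0.05 in the 3 comparisons, that of the 3 repressors was 0.23, 1.38 and 1.15, and that of all tested genes was -0.01, 0.00 and 0.01.

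**Figure D1:**
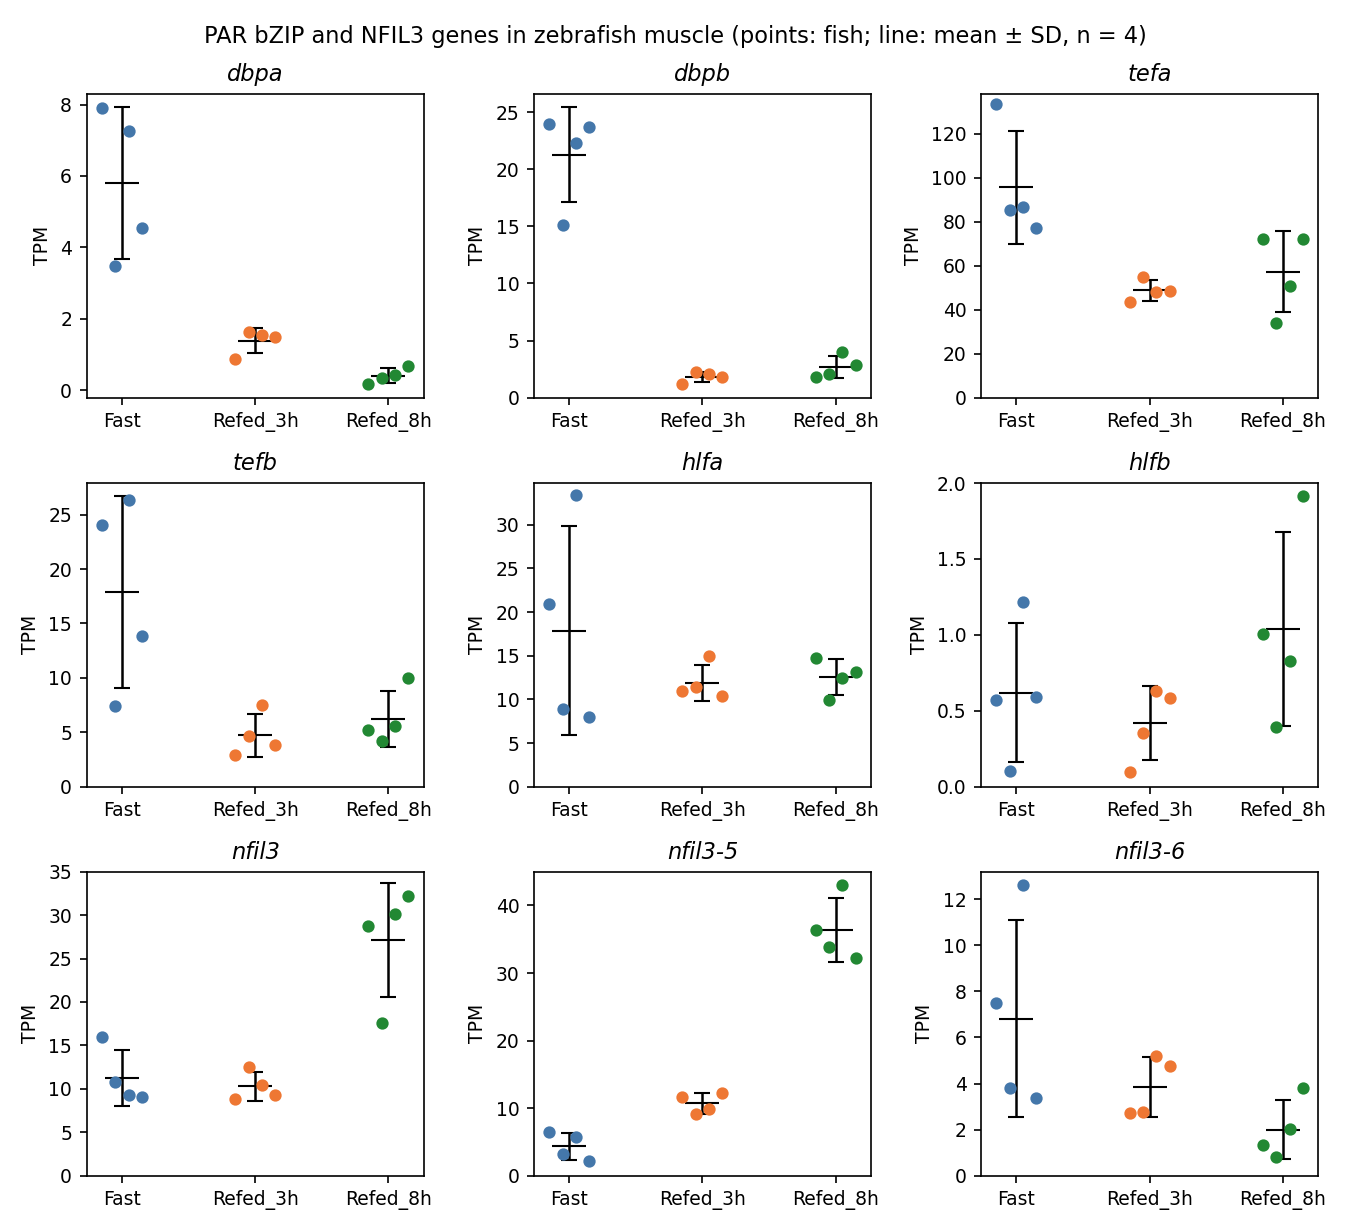
TPM (vertical axes, each from about 0) of the 9 genes in each of 12 fish, grouped as Fast, Refed_3h and Refed_8h, with points for fish and black lines for the mean ± SD (n = 4). All fish of both refed groups lie below all Fast fish for dbpa, dbpb and tefa, and all Refed_8h fish lie above all others for nfil3 and nfil3-5.

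The gene dbpb (ENSDARG00000057652, chromosome 16, 13599693 to 13613475 on GRCz11) fell in both refed groups against Fast. Its level was 24.0, 15.1, 22.3 and 23.7 TPM in the Fast fish, 1.22, 2.25, 2.04 and 1.78 TPM at 3 h, and 1.84, 2.11, 3.95 and 2.83 TPM at 8 h. Every refed fish was below every Fast fish, and the refed groups overlapped. The mean of dbpb was 11.7-fold lower in Refed_3h than in Fast, at 1.82 ± 0.445 against 21.3 ± 4.16 TPM (SD, n = 4). In edgeR its log2FC was -3.18 (SE 0.27, padj = 4.8e-05) in 3 h vs Fast and -2.85 (SE 0.26, padj = 5.1e-05) in 8 h vs Fast. Between the refed groups the log2FC of dbpb was 0.33 (SE 0.26, edgeR padj = 0.49).

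The other copy, dbpa (ENSDARG00000063014, chromosome 19, 10177115 to 10196370 on GRCz11), fell at 3 h and again between 3 h and 8 h. Its level was 7.91, 3.49, 7.26 and 4.55 TPM in the Fast fish, 0.866, 1.64, 1.53 and 1.48 TPM at 3 h, and 0.175, 0.342, 0.432 and 0.664 TPM at 8 h. The 3 groups of fish did not overlap. The log2FC values of dbpa were -1.68 (SE 0.33, edgeR padj = 0.015) in 3 h vs Fast, -3.68 (SE 0.37, edgeR padj = 1.3e-04) in 8 h vs Fast and -2.0 (SE 0.37, edgeR padj = 0.0078) in 8 h vs 3 h. At 8 h the level of dbpa rested on 5 to 22 counts per library, against 99 to 199 in Fast. The first of these calls was lost when Fast replicate 1 or Refed_3h replicate 1 was left out (edgeR padj = 0.052 and 0.051), and over its 22 alternatives padj ran from 3.4e-05 to 0.052. The last was lost in limma on log2(TPM + 1), with a log2FC of -0.76 (padj = 0.068, and 0.11 with no filter on low TPM, over a range of 1.5e-05 to 0.11), a scale that shrinks changes of genes under 1 TPM. The level of dbpa over the 12 libraries ran with the mean level of pigment cell markers (r = 0.70), as did those of dbpb (r = 0.79), tefb (r = 0.75) and tefa (r = 0.68). With each group's mean removed, r was 0.73 for dbpa, 0.44 for dbpb, 0.39 for tefb and 0.25 for tefa. Of the 9 tested pigment cell markers, 0 passed in edgeR in any comparison (6, 3 and 0 had an unadjusted p under 0.05 in the 3 comparisons, and at most 1 passed in DESeq2, another test of counts, and 2 in limma, a linear model of log2 TPM). Their part in the falls was not tested.

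Of the tef copies, only tefb in 3 h vs Fast passed the test. The gene tefa (ENSDARG00000039117, chromosome 12, 19144833 to 19153177 on GRCz11) was the most abundant of the 9 genes in each group. It was at 133, 85.5, 86.6 and 77.0 TPM in the Fast fish, 43.4, 55.0, 48.2 and 48.7 TPM at 3 h, and 72.0, 34.1, 50.8 and 72.3 TPM at 8 h. All refed fish were below all Fast fish. Its log2FC was -0.60 (SE 0.18, edgeR padj = 0.074) in 3 h vs Fast and -0.65 (SE 0.18, edgeR padj = 0.11) in 8 h vs Fast, and neither passed. Between the refed groups the log2FC of tefa was -0.05 (SE 0.18, edgeR padj = 0.91). In 3 h vs Fast it passed in DESeq2 (padj = 0.023), in limma on log2(TPM + 1) (padj = 0.034) and in edgeR without Refed_8h replicate 2 (padj = 0.046), over a range of 0.023 to 0.21. It passed in 8 h vs Fast in DESeq2 (padj = 0.023), over a range of 0.023 to 0.41. TPM and TMM set the level of a library differently. On the scale of log2(TPM + 1) the median log2FC was taken over genes with a mean TPM of at least 0.5. It lay at -0.26 in 3 h vs Fast, -0.08 in 8 h vs Fast and 0.18 in 8 h vs 3 h. With TMM the median of the 16745 tested genes, a set filtered on counts instead, lay near 0. The log2FC of tefa on the log2(TPM + 1) scale was -0.93 in 3 h vs Fast and 0.17 in 8 h vs 3 h.

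The gene tefb (ENSDARG00000098103, chromosome 3, 5052822 to 5067585 on GRCz11) was at 24.0, 7.38, 26.3 and 13.9 TPM in the Fast fish, 2.93, 4.63, 7.48 and 3.80 TPM at 3 h, and 5.20, 4.16, 5.56 and 10.0 TPM at 8 h. The lowest Fast fish, replicate 2, lay within the range of both refed groups. In 3 h vs Fast tefb fell, with a log2FC of -1.55 (SE 0.36, edgeR padj = 0.032). This call was lost when any 1 of 6 libraries was left out. The edgeR padj was 0.089, 0.062 and 0.053 without Fast replicates 1, 3 and 4, and 0.094, 0.069 and 0.079 without Refed_3h replicates 1, 2 and 4. The log2FC of tefb in 8 h vs Fast was -1.39 (SE 0.36, edgeR padj = 0.088). It passed in edgeR without Fast replicate 2 (padj = 0.031) and with a term for the split of replicates 1 and 2 against 3 and 4, which was chosen after seeing the data (padj = 0.028), and in DESeq2 (padj = 0.0070), over a range up to 0.23. Between the refed groups the log2FC of tefb was 0.16 (SE 0.36, edgeR padj = 0.85).

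The hlf copies did not pass the test in any comparison. The gene hlfa (ENSDARG00000074752, chromosome 3, 11585298 to 11624694 on GRCz11) was at 20.9, 8.95, 33.5 and 8.03 TPM in the Fast fish, 10.9, 11.4, 14.9 and 10.4 TPM at 3 h, and 14.8, 9.89, 12.5 and 13.2 TPM at 8 h. The Fast fish spanned the values of both refed groups, and their coefficient of variation was 67.0% against 17.2% and 16.2%. The log2FC values of hlfa were -0.20 (SE 0.34, edgeR padj = 0.76) in 3 h vs Fast, -0.38 (SE 0.34, edgeR padj = 0.70) in 8 h vs Fast and -0.17 (SE 0.34, edgeR padj = 0.81) in 8 h vs 3 h. The first of these and the next turned positive without Fast replicate 3, at 0.32 and 0.14 (edgeR padj = 0.43 and 0.86). The gene hlfb (ENSDARG00000061011, chromosome 12, 32159272 to 32165227 on GRCz11) was near the limit of detection, with 1 to 22 counts and 0.0998 to 1.91 TPM per library. With no filter on low counts its log2FC in 8 h vs Fast was 0.85 (SE 0.65, edgeR padj = 0.69), so that a difference was not detectable at this depth.

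Among the repressors, nfil3-5 (ENSDARG00000094965, chromosome 6, 8172227 to 8180042 on GRCz11) rose at each step. It was at 6.40, 3.16, 5.66 and 2.22 TPM in the Fast fish, 11.7, 9.07, 9.80 and 12.3 TPM at 3 h, and 36.3, 33.8, 43.0 and 32.2 TPM at 8 h. The 3 groups of fish did not overlap, and the mean was 8.33-fold higher in Refed_8h than in Fast. The log2FC values of nfil3-5 were 1.71 (SE 0.27, edgeR padj = 0.0050) in 3 h vs Fast, 3.21 (SE 0.29, edgeR padj = 3.8e-05) in 8 h vs Fast and 1.5 (SE 0.27, edgeR padj = 0.0063) in 8 h vs 3 h. All 3 calls held under each of the 22 alternatives, with padj up to 0.026. The level of nfil3-5 ran against the mean level of skin markers (r = -0.70), as that of tefa ran with it (r = 0.67). With each group's mean removed these r values were -0.46 and 0.45. For dbpa and dbpb the r with skin markers was 0.47 and 0.38 over the libraries, and -0.55 and -0.68 with each group's mean removed. With the skin marker mean as a covariate the 3 log2FC values of nfil3-5 were 1.54, 2.86 and 1.32 (edgeR padj = 0.011, 4.2e-04 and 0.010). Under this covariate the log2FC of dbpa in 8 h vs Fast was -4.13 (edgeR padj = 5.3e-04), against -3.68 without it. That of dbpb was -3.36 (edgeR padj = 5.2e-05), against -2.85. Of all 16745 tested genes, 14 (0.0836%) were called in all 3 comparisons, and nfil3-5 and dbpa are among them, in opposite directions.

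The gene nfil3 (ENSDARG00000042977, chromosome 10, 5414224 to 5419256 on GRCz11), the copy that bears the plain name of the mammalian gene, rose at 8 h. It was at 15.9, 10.8, 9.24 and 9.11 TPM in the Fast fish, 8.79, 12.6, 10.4 and 9.34 TPM at 3 h, and 28.8, 17.5, 30.2 and 32.2 TPM at 8 h. The Fast and Refed_3h fish overlapped, and all Refed_8h fish were above both. At 3 h the log2FC of nfil3 was 0.23 (SE 0.18, edgeR padj = 0.46), and it was -0.10 in limma on log2(TPM + 1), so its sign differed between these tests. The log2FC values were 1.38 (SE 0.18, edgeR padj = 0.0011) in 8 h vs Fast and 1.15 (SE 0.18, edgeR padj = 0.0030) in 8 h vs 3 h. Leukocyte markers, of a cell lineage in which mammalian NFIL3 is known to act, summed to 2829 to 3455 TPM in Fast, 2036 to 2880 TPM in Refed_3h and 2763 to 4945 TPM in Refed_8h. Of the 11 leukocyte markers, 4 rose in 8 h vs 3 h, where 3.06% of all tested genes did. In 8 h vs Fast 0 of them passed in edgeR (4 had an unadjusted p under 0.05, 1 passed in DESeq2 and 0 in limma). The r of nfil3 with the mean level of leukocyte markers was 0.59 over the 12 libraries and -0.29 with each group's mean removed. The level of nfil3 also ran with the mean level of adipocyte markers over the 12 libraries (r = 0.70). So did that of nfil3-5 (r = 0.63), and that of dbpa ran against it (r = -0.61). With each group's mean removed these r values were 0.20, 0.03 and 0.12. Of the adipocyte markers, 0 of 3 passed in edgeR, DESeq2 or limma in any comparison (1 had an unadjusted p under 0.05 in 3 h vs Fast). The part of either in the rise of nfil3 was not tested.

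The gene nfil3-6 (ENSDARG00000087188, chromosome 3, 14099693 to 14103551 on GRCz11) had its group means in the opposite order to those of nfil3-5. It was at 7.48, 3.79, 12.6 and 3.39 TPM in the Fast fish, 2.72, 2.76, 5.20 and 4.74 TPM at 3 h, and 1.35, 0.825, 2.04 and 3.79 TPM at 8 h. Neighbouring groups overlapped, and only the highest Refed_8h fish reached the 2 lowest Fast fish. The log2FC of nfil3-6 in 3 h vs Fast was -0.42 (SE 0.47, edgeR padj = 0.63), and it turned to 0.076 without Fast replicate 3. It was -1.65 (SE 0.48, edgeR padj = 0.14) in 8 h vs Fast and -1.23 (SE 0.48, edgeR padj = 0.15) in 8 h vs 3 h, and neither passed. It passed in 8 h vs Fast in DESeq2 (padj = 0.017). With the split of replicates 1 and 2 against 3 and 4 as a term it passed in both comparisons in edgeR (padj = 0.023 and 0.043). Over the 22 alternatives padj went up to 0.30 and 0.34. Further NFIL3 copies in the table, nfil3-3 and nfil3-4, were at 0 to 7 and 0 to 6 counts per library and were not tested. The annotated end of nfil3-3 lies 17360 bases before the start of nfil3-5 on chromosome 6.

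**Figure D2:**
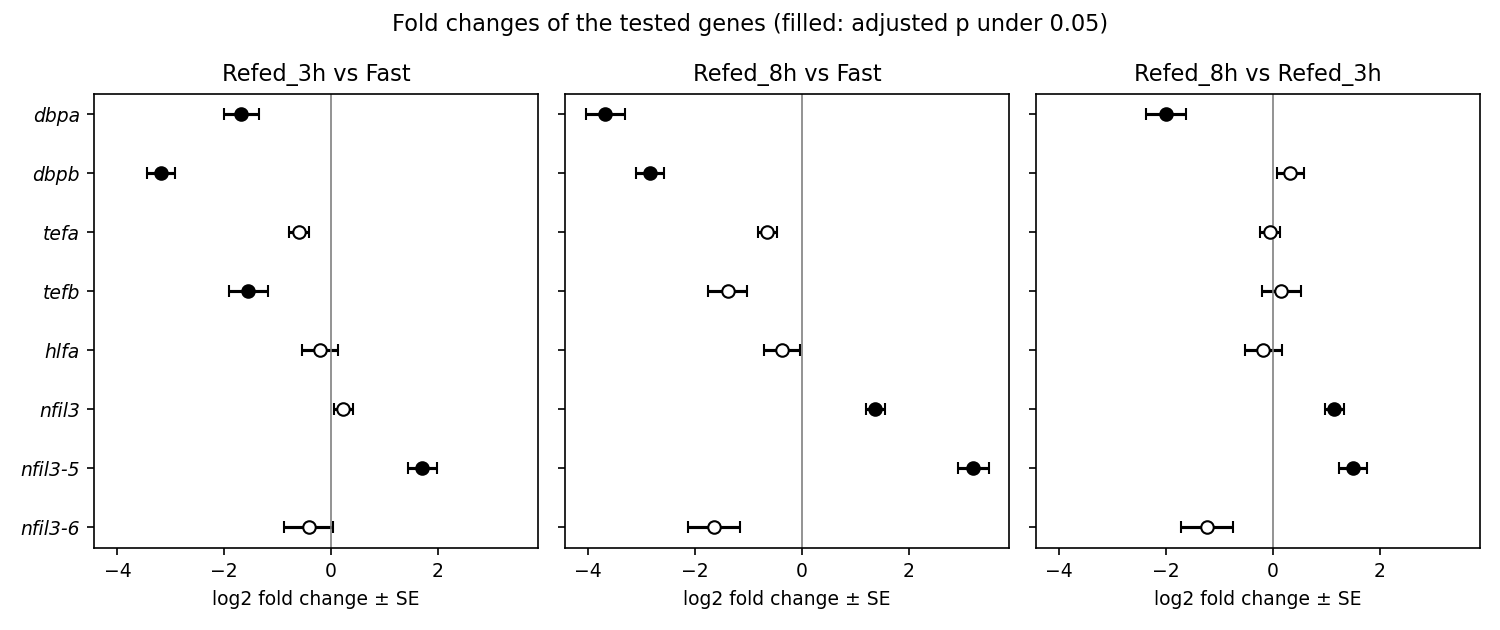
Log2 fold changes with standard errors (horizontal axes) of the 8 tested genes in the 3 comparisons, from edgeR with TMM scaling. Filled points passed an adjusted p of 0.05, with 4, 4 and 3 such genes from the first to the last comparison (Refed_3h against Fast, Refed_8h against Fast, Refed_8h against Refed_3h).

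Since TPM is a level per transcript length, levels of different genes can be set side by side on that scale. In Fast the order by mean was tefa, dbpb, tefb, hlfa, nfil3, nfil3-6, dbpa, nfil3-5 and hlfb. The ranges of the fish separated tefa from dbpb and nfil3-5 from hlfb, and all other neighbours in this order overlapped. In Refed_3h the order was tefa, hlfa, nfil3-5, nfil3, tefb, nfil3-6, dbpb, dbpa and hlfb. In Refed_8h tefa was still first, at 57.3 ± 18.5 TPM, but it overlapped with nfil3-5 at 36.3 ± 4.76 TPM (SD, n = 4), which had been eighth in Fast. The gene dbpa, seventh in Fast, was last in Refed_8h.

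Summed over the 6 activators, levels were 121 to 211 TPM in Fast, 59.4 to 75.2 TPM in Refed_3h and 51.0 to 101 TPM in Refed_8h. Summed over the 3 repressors, they were 14.7 to 29.8, 23.2 to 26.4 and 52.1 to 75.2 TPM. The repressor sum thus overlapped between Fast and Refed_3h and was higher in every Refed_8h fish than in any other. The ratio of the sums was 7.24 ± 0.992 in Fast, 2.78 ± 0.276 in Refed_3h and 1.22 ± 0.274 in Refed_8h (SD, n = 4), and its ranges of 6.44 to 8.68, 2.53 to 3.08 and 0.978 to 1.48 did not overlap. These sums describe transcripts, and no test was made on them. The share of tefa in the activator sum was 48.9% to 70.9% in Fast and 64.4% to 75.8% in the refed fish. In Fast, Refed_3h and Refed_8h the mean activator sum was 159, 69.1 and 80.2 TPM. The mean of tefa, which did not pass in edgeR with all libraries in any comparison, was 95.6, 48.8 and 57.3 TPM. Within the repressor sum the share of nfil3-5 was 15.1% to 21.5% in Fast, 37.2% to 50.4% in Refed_3h and 47.2% to 64.8% in Refed_8h, while that of nfil3-6 was 21.3% to 45.8%, 11.3% to 20.4% and 1.58% to 5.56%.

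**Figure D3:**
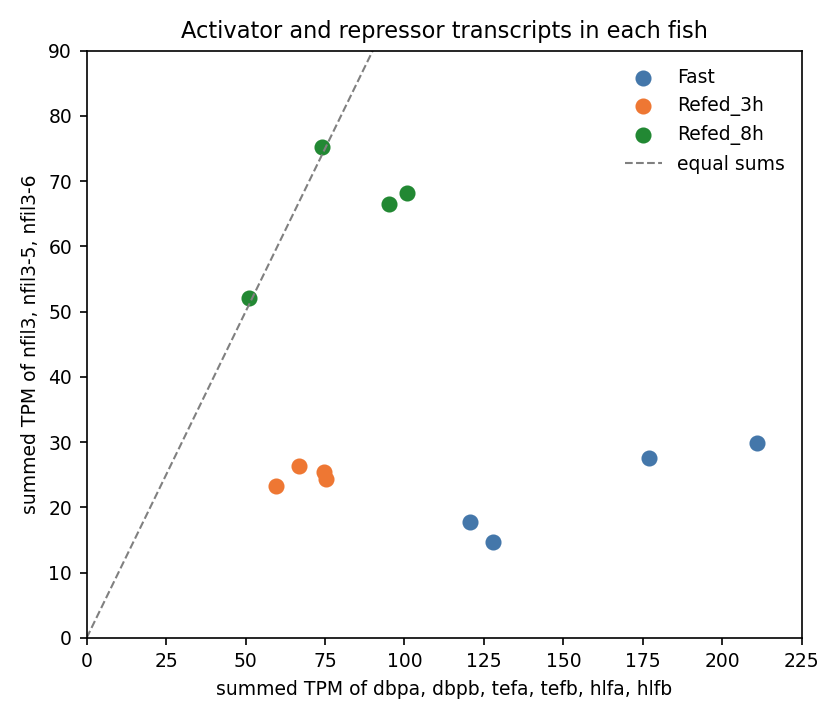
Summed TPM of the 6 activators (horizontal axis) and of the 3 repressors (vertical axis) in each of the 12 fish, coloured by group, with a dashed line where both sums are equal. The 4 Fast fish lie at 121 to 211 TPM of activators with 14.7 to 29.8 TPM of repressors, and of the 4 Refed_8h fish 2 lie just left of the line and 2 to its right, at ratios of 0.978 to 1.48.

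Whether the a and b copies of a gene responded unequally was tested on the difference of their log2(TPM + 1) within each fish, with exact two-sided permutation tests over the fish. With 4 fish against 4 the smallest possible p is 0.029, and 9 such tests were made, so that a test could pass after adjustment only if most of the others reached that p too. For dbpa minus dbpb the difference was -1.74 ± 0.319 in Fast, -0.25 ± 0.0584 in Refed_3h and -1.37 ± 0.282 in Refed_8h (SD, n = 4). The change of this difference was 1.5 from Fast to Refed_3h and -1.12 from Refed_3h to Refed_8h (exact permutation p = 0.029 for each, Benjamini-Hochberg adjusted p = 0.13 over the 9 tests). In both comparisons all 4 fish of one group were above all 4 of the other, and the adjusted p says nothing of their stability. With log2(TPM + 0.1) the second of these changes was -2.12. The change from Fast to Refed_8h was 0.37 (exact permutation p = 0.17, adjusted p = 0.30), and it was -0.60 with log2(TPM + 0.1), so its direction depended on the pseudocount. At 8 h dbpa lay at 0.175 to 0.664 TPM, where a pseudocount of 1 shrinks changes. Without a pseudocount, the mean TPM of dbpa was 14.4-fold lower in Refed_8h than in Fast, and that of dbpb was 7.92-fold lower. For tefa minus tefb the 3 changes were 0.71, 0.54 and -0.17, and for hlfa minus hlfb they were -0.17, -0.58 and -0.42 (exact permutation p of 0.086 to 0.66 for these 6, adjusted p of 0.26 to 0.66). With log2(TPM + 0.1) the changes of hlfa minus hlfb were -1.03 in 8 h vs Fast and -1.04 in 8 h vs 3 h.

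Across the 12 libraries, Pearson's r of log2 CPM (counts relative to the library total) between dbpa, dbpb, tefa and tefb was 0.71 to 0.84. These 4 genes ran against nfil3-5, with r = -0.89 for dbpa, -0.78 for dbpb, -0.68 for tefa and -0.61 for tefb. The repressors nfil3 and nfil3-5 ran together (r = 0.85), and nfil3-6 ran against both (r = -0.62 and -0.57). The points share the 3 groups and the scaling of their library, so these values are a description. With each group's mean removed, none of the negative relations to nfil3-5 remained negative, at r = 0.33, 0.11, 0.16 and 0.21. Within groups the called activators still ran together, with r = 0.75 for dbpa and tefb, 0.73 for dbpa and dbpb and 0.46 for dbpb and tefb. The relations of tefa were weaker there, at r = 0.17 with dbpa, -0.04 with dbpb and 0.24 with tefb. For nfil3 and nfil3-5 the r within groups was 0.16. That of nfil3-6 turned positive with both nfil3 (r = 0.31) and nfil3-5 (r = 0.49). The repressor nfil3-6 ran with tefb (r = 0.78), hlfa (r = 0.71) and dbpa (r = 0.70). Further pairs that ran together were hlfa with nfil3-5 (r = 0.71), hlfa with tefb (r = 0.66) and tefa with nfil3 (r = 0.79). Fast replicate 3 was the highest Fast fish for tefb, hlfa, hlfb and nfil3-6.

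**Figure D4:**
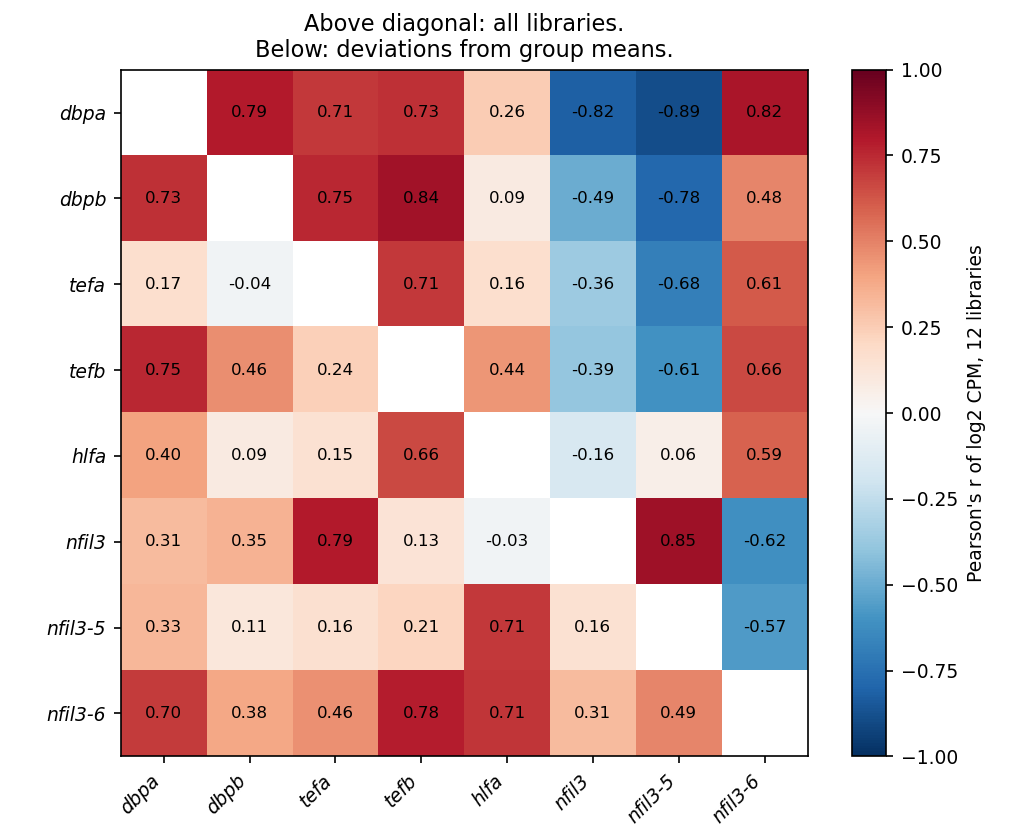
Pearson's r of log2 CPM between the 8 tested genes over 12 libraries (colour scale from -1 to 1). Above the diagonal all libraries are used, where dbpa and nfil3-5 have r = -0.89, and below it each library's deviation from its group mean is used, where they have r = 0.33.

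The genes of most similar pattern were ranked by the same r among 6941 genes with a mean of at least 5 TPM, for the 5 genes called in any comparison. These r values are the extremes of many genes over libraries that share the 3 groups, so they are a description. For these genes no r with group means removed was computed. Nearest to dbpa were per1b (r = 0.98), nr1d2b (r = 0.97) and per3 (r = 0.96), which encode repressors of the clock. Most opposite to dbpa were fus (r = -0.92), which encodes an RNA-binding protein, impdh1b (r = -0.92), an enzyme of guanine nucleotide synthesis, and rorcb (r = -0.91), a nuclear receptor of the ROR family. Nearest to dbpb were nr1d1 (r = 0.97), the REV-ERB alpha gene, wsb1 (r = 0.93) and znf395b (r = 0.91). Most opposite to dbpb were cry3b (r = -0.92), a cryptochrome, lmnb1 (r = -0.91), a lamin of the nuclear envelope, and slc9a3r1a (r = -0.90). Nearest to nfil3-5 were rorcb (r = 0.98), cry3b (r = 0.94) and asb2a.1_1 (r = 0.94), and most opposite were ciarta, znf395b and lmna (r = -0.95 for each). Nearest to nfil3 were aif1l (r = 0.94), mxd3 (r = 0.90), a partner of MAX, and rorcb (r = 0.88), and most opposite was bhlhe40 (r = -0.96), a repressor of the clock, followed by slc25a33 (r = -0.95), a mitochondrial carrier, and rorab (r = -0.93), another ROR gene. The genes nearest to tefb were of another kind, with myh9b (r = 0.97), a nonmuscle myosin, nap1l1 (r = 0.93), a histone chaperone, and itgb3a (r = 0.91), an integrin. Among the genes most opposite to tefb were n6amt1 (r = -0.92) and emc4 (r = -0.92).

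Other genes of the pathway were taken from lists, which were also chosen with earlier results of these data known. Of 28 tested genes of the clock, which acts upstream of both families in mouse, 2 rose and 13 fell in 3 h vs Fast, 4 rose and 14 fell in 8 h vs Fast, and 4 rose and 10 fell in 8 h vs 3 h. Of all tested genes, 2.28% rose and 2.63% fell in the first comparison, 0.543% and 0.854% in the second, and 3.06% and 3.36% in the third. The median log2FC values of this list were -1.10, -1.12 and -0.13. The clock repressor ciarta in 8 h vs Fast was at 0.537 ± 0.179 against 28.9 ± 7.08 TPM (SD, n = 4), with a log2FC of -5.63 (SE 0.32, edgeR padj = 8.4e-07). Of the period genes, per1a in the same comparison had a log2FC of -4.76 (SE 0.38, edgeR padj = 1.3e-05) and per3 one of -4.40 (SE 0.28, edgeR padj = 1.5e-06). In 8 h vs 3 h nr1d4b, of the REV-ERB family, was at 3.91 ± 1.2 against 0.0521 ± 0.0416 TPM (SD, n = 4) and had one of 5.95 (SE 0.61, edgeR padj = 1.8e-04). The size of this change rests on a level near 0 TPM at 3 h, and in Fast nr1d4b was at 0.743 ± 0.576 TPM (SD, n = 4).

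Of 6 tested genes with a role in the response of zebrafish to light or to DNA damage by light (per2, cry1a, cry5, ddb2, xpc and neil1), 0 passed in edgeR in 3 h vs Fast (2 had an unadjusted p under 0.05, and 1 passed in DESeq2 and 1 in limma) and 2 fell in 8 h vs Fast. The cryptochrome cry1a fell from 31.1 ± 3.05 to 15.4 ± 0.710 TPM (SD, n = 4), with a log2FC of -0.90 (SE 0.12, edgeR padj = 0.0018). The DNA damage binding gene ddb2 had a log2FC of -1.14 (SE 0.21, edgeR padj = 0.014). Between the refed groups cry1a fell, with a log2FC of -0.78 (SE 0.12, edgeR padj = 0.0034), and the other 5 did not pass. For per2, a clock gene whose zebrafish promoter holds a D-box, the log2FC was 0.48 (SE 0.16, edgeR padj = 0.090) at 3 h and 0.01 (SE 0.16, edgeR padj = 0.98) at 8 h against Fast. Both per2 and cry1a are also counted in the clock list above, so the lists are not separate evidence.

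Of 7 tested genes whose mammalian counterparts are known to be controlled by PAR bZIP proteins or NFIL3 in liver or other tissues (pora, porb, pdxka, alas1, pparaa, pparab and cyp7a1), 0 passed in edgeR in any comparison. An unadjusted p under 0.05 was found for 0, 4 and 2 of them in the 3 comparisons, 3 passed in DESeq2 in 8 h vs Fast and 0 in the others, and 0 passed in limma. Their median log2FC values were -0.50, -0.99 and -0.39. The lowest adjusted p was that of pparaa, the receptor PPAR alpha, in 8 h vs Fast, with a log2FC of -1.07 (SE 0.30, edgeR padj = 0.11). The largest difference was that of cyp7a1, the rate-limiting enzyme of bile acid synthesis in liver, with a mean of 79.6 ± 76.5 TPM in the Fast fish against 5.04 ± 3.58 TPM at 8 h (SD, n = 4) and a log2FC of -3.83 (SE 1.13, edgeR padj = 0.16). The pyridoxal kinase gene pdxka had a log2FC of 0.54 (SE 0.22, edgeR padj = 0.31) in the same comparison. Of 4 tested C/EBP genes, which encode bZIP proteins with a binding site similar to the D-box, 0 passed in edgeR in any comparison (1, 1 and 0 had an unadjusted p under 0.05, 1, 1 and 0 passed in DESeq2 and 1, 0 and 0 in limma), and the largest difference was that of cebpd in 3 h vs Fast, with a log2FC of -1.95 (SE 0.52, edgeR padj = 0.054).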

How the data were processed

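Poly(A) RNA of 12 muscle samples was sequenced as paired-end reads, which the authors mapped to GRCz11 in CLC Genomics Workbench. For the annotation release, the strand setting and reads with several matches, the sources used here give nothing, and whether reads are shared between similar copies of a gene was not tested. The deposited counts are not normalized. The deposited TPM were computed by the authors and have an equal sum in all libraries. The table also holds RPKM, CPM and the authors' own fold changes and p-values, which were not used here. Columns were matched to fish by the run name in the sample titles.

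Tests on counts used edgeR 4.0.16 in R 4.3.3 (filterByExpr, TMM, robust quasi-likelihood fit of 3 groups). A standard error is the size of log2FC over the root of its F statistic. Genes varied between fish of a group by a common biological coefficient of 30.6%. Genes were called at an adjusted p under 0.05 and a change of at least 2-fold, the FDR and fold thresholds of the study. For its further analyses the study also left out genes of low average TPM or of high spread within a group. Those 2 filters were not applied here. Within-fish differences of copies were tested with scipy 1.17.1. For 66 pairs of libraries 0 had identical counts. The edgeR fit was tested on simulated data. Alternatives were DESeq2 1.42.0, limma 3.58.1 on log2(TPM + 1), for genes with a mean TPM of 0.5 or more or for all genes, limma on log2(TPM + 0.1), RLE factors, no filter, no fold condition, 2 groups only, the replicate number as a block, a skin marker score as a covariate and each library left out. The split of replicates 1 and 2 against 3 and 4 was added after seeing the data. The fish named as replicates are separate fish. The genes and lists were chosen with earlier results of these data known. Genes named beyond the 9 are, per called gene, the 3 of highest and 3 of lowest r without a clone name, the first of each marker list, and up to 4 per pathway list by largest change among those past the adjusted p. Further list genes (per2, pparaa, cyp7a1, pdxka, cebpd) were named after their values were seen. For tefb, 1 gene of this rule is not reported here. Sequences were not analysed here.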

Additional observations from a re-analysis of the deposited data

Results flagged for a closer look

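A single value stood apart from its group. The level of tefa in Fast replicate 1 was 133 TPM, and the other Fast fish were at 77.0 to 86.6 TPM, a gap that exceeded Dixon's critical value of 0.829 for 4 values. Over the 27 groups of 4 fish examined (9 genes in 3 groups) this was the 1 such value, where chance flags about 1 group in 20. Without that fish the edgeR log2FC of tefa was -0.49 in 3 h vs Fast (padj = 0.21) and -0.54 in 8 h vs Fast (padj = 0.27).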

How the results depend on the processing

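The number of the 8 tested genes called was 2 to 4 in 3 h vs Fast, 4 to 5 in 8 h vs Fast and 3 in 8 h vs 3 h with each library left out in turn. It was 2 in 3 h vs Fast without Fast replicate 1 and without Refed_3h replicate 1. Under the other alternatives it stayed at 4 in 3 h vs Fast. In 8 h vs Fast it was 6 in DESeq2 and with the replicate split, and 4 otherwise. In 8 h vs 3 h it was 2 in limma on log2(TPM + 1), with or without the filter. There it was 4 with the replicate split and 3 otherwise. Of the single genes' log2FC values under alternatives, 490 kept their direction and side of the threshold, 10 lost significance, 11 gained it and 17 turned sign, each of these in a gene and comparison that had not passed. On log2(TPM + 1), log2(TPM + 0.1) and log2(TPM + 1) with no filter, that of nfil3 in 3 h vs Fast was -0.10, -0.11 and -0.10. Those of tefa in 8 h vs 3 h were 0.17, 0.17 and 0.17, and those of hlfa 0.073, 0.078 and 0.073. With skin markers as a covariate, tefa was at 0.023. With libraries left out, tefa in 8 h vs 3 h spanned -0.15 to 0.087, tefb -0.12 to 0.42, hlfa in 3 h vs Fast -0.43 to 0.32, hlfa in 8 h vs Fast -0.61 to 0.14, and nfil3-6 in 3 h vs Fast -0.63 to 0.076. With log2(TPM + 0.1) the change of dbpa minus dbpb in 8 h vs Fast was -0.60, against 0.37, and that of hlfa minus hlfb in 3 h vs Fast 0.013, against -0.17. The cause of these shifts was not tested.

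Over all genes, 347, 165 and 466 were called in the 3 comparisons. DESeq2 called 598, 324 and 719, and without the fold condition 821 and 1074 were called in the first and last. In the first comparison limma on log2(TPM + 0.1) called 740, and 179, 181 and 226 were called without Fast replicate 1, Refed_3h replicate 1 and Refed_3h replicate 4. In the last, limma on log2(TPM + 1) called 241, or 192 with no filter, and 280 were called without Refed_8h replicate 4. The labels give the groups the same replicate numbers. Deviations from group means correlated over 0.1 in 7 of 12 same-numbered pairs of libraries (median r = 0.12) and in 7 of 36 other pairs (median r = -0.02), and 8 of 12 libraries correlated best with one of their own number, a hint of shared deviations. Since the labels name no shared animal or batch and not every same-numbered pair was over 0.1, the numbers were not taken as pairs. Each group held fish of both sexes, and the sex of each fish was not a term in any model. With the replicate number as a block, 4, 4 and 3 of the 8 genes were called, and 368, 179 and 499 of all genes. Low counts limit what can be said of hlfb, nfil3-3, nfil3-4 and dbpa at 8 h.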
